A study of Homo sapiens with 42 samples.

Results

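Chromatin accessibility was read at the genes of the Sprouty and SPRED families (SPRY1, SPRY2, SPRY4, SPRED1, SPRED2 and SPRED3) and at 3 early targets of ERK signalling (PHLDA1, IER3 and EGR1) in lung cancer cells exposed to an EGFR inhibitor, a BET inhibitor or both. A region belonged to the set when the authors' annotation gave it 1 of these 9 gene symbols. This took 213 of 242490 annotated regions over 4 cell lines, each 502 bp wide. PC9 held 57 of its 69565 annotated regions in the set, H1975 64 of 76952, HCC827 24 of 30709 and HCC2935 68 of 65264. SPRED2 had the most regions in every line (18 each in PC9 and H1975, 23 in HCC2935 and 8 in HCC827). IER3 had no region in any line, SPRED3 had 2 and in HCC827 alone, and SPRED1 had none in HCC827.

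EGFR signals through RAS, RAF and MEK to the kinase ERK, and ERK activity switches on genes whose products push back on the same cascade. Sprouty proteins are adaptors that restrain signalling between the receptor and RAF, and SPRED proteins hold it back by recruiting the RAS inactivator NF1 to the membrane. EGR1 is a zinc finger transcription factor and IER3 a stress response protein, both rapidly induced when ERK is active, and PHLDA1 is a growth factor induced protein with a pleckstrin homology-like domain. Transcripts of most of these genes are used as readouts of ERK output in tumours. Open chromatin is a different measure from transcription and need not move with it.

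PC9, H1975, HCC827 and HCC2935 are established lines of EGFR-mutant non-small cell lung cancer. The assay was ATAC-seq, in which a transposase cuts and tags accessible DNA, and the 42 libraries formed 14 groups of 3. Controls were grown for 21 days without drug and then 3 days in DMSO. Drug-tolerant persister (DTP) cells had 500 nM osimertinib, an inhibitor of mutant EGFR, for 24 days. The combo group had 21 days of 500 nM osimertinib, followed by 3 days of 150 nM AZD5153, a BET inhibitor, and whether osimertinib was kept on in those days is not given. In PC9 and H1975 an AZD5153 group had 21 days without drug and then 3 days of 150 nM AZD5153. A DTP culture is what was left after the drug, and loss of some cells and change within others cannot be told apart. Likewise, fewer cells with an open region and less accessibility per cell cannot be told apart in bulk libraries.

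The counts per library summed to 3989287 to 5193390 for PC9, 6200672 to 10062505 for H1975, 1724680 to 4242868 for HCC827 and 3968690 to 8066287 for HCC2935. The spread between libraries of a group differed greatly between lines. Its variance was 0.959 to 1.04 times that of pure counting in PC9 and 0.966 to 1.22 times in H1975, and 8 of 12 and 5 of 12 pairs of libraries showed no spread beyond counting. It was 1.18 to 1.83 times in HCC2935 and 1.21 to 8.76 times in HCC827. The labels number these libraries as replicates, so p-values measure the spread between the 3 libraries, and in PC9 and H1975 that spread may be technical. For this reason the counts over all member regions, and some of the others, are also given with the 3 libraries of a group summed to 1 sample and the spread taken from HCC2935. All 5 epithelial markers had an open promoter in every line, while the 2 blood markers had none and endothelial markers had 2, 2, 0 and 1 of 2 in PC9, H1975, HCC827 and HCC2935. Of 3 lung adenocarcinoma lineage markers (NKX2-1, NAPSA and SFTPB), 1, 3, 2 and 2 had one in these lines.

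The promoters of 4 members are shown because the results turn on them, as the 250 bases before the outermost transcription start, 5′ to 3′ on the strand of the gene, from RefSeq (GRCh38.p14). Capitals mark CArG boxes, the sites of serum response factor through which ERK activates immediate early genes, and EGR sites with the letters GCGNGGGCG, both searched on both strands.
EGR1: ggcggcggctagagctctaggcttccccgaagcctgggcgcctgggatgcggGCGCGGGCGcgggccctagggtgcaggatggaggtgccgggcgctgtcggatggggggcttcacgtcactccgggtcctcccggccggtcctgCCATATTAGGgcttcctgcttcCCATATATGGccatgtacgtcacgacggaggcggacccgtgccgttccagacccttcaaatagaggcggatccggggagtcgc
SPRY2: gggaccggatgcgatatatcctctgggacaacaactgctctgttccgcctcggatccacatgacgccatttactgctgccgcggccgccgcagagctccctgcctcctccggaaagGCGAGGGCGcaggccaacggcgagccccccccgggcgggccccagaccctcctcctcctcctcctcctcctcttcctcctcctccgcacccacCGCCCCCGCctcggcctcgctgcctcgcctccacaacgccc
SPRED2: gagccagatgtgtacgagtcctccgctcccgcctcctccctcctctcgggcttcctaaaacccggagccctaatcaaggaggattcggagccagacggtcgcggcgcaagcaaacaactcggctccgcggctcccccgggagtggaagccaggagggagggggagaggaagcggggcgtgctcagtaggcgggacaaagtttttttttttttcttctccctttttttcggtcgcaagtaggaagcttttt
PHLDA1: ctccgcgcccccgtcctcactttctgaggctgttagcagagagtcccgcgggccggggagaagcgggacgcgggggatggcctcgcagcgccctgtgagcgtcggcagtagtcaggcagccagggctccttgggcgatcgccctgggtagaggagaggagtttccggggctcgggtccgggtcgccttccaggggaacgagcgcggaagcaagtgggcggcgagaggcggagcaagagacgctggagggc
The EGR1 sequence lies at chr5:138465229-138465478 on the plus strand and held 2 CArG boxes and 1 EGR site. A CArG box was present in 1.16% of 35116 promoters of the same length and an EGR site in 8.41%. The SPRY2 sequence at chr13:80341127-80341376 on the minus strand held 2 EGR sites and no CArG box. The SPRED2 sequence at chr2:65432600-65432849 and the PHLDA1 sequence at chr12:76031777-76032026, both on the minus strand, held neither motif. They also held none of the ETS site CCGGAAG, the AP-1 site TGANTCA, the cAMP response element TGACGTCA, the shorter site TGACG, the CIC octamers TGAATGAA and TGAATGGA and the TEAD site GGAATG, which were in 8.52%, 6.57%, 1.65%, 21.2%, 2.19% and 11.9% of promoters. The most open region at the EGR1 start covered 131 of these 250 bases in PC9 and left both CArG boxes outside. At the SPRED2 start it covered 209 to 210 bases in the 4 lines.

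Persister cells were compared with controls to ask which of these regions differed after long EGFR inhibition. More member regions were lower than higher in the 3 lines that gave calls. A region was called at an adjusted p under 0.05 in edgeR's quasi-likelihood test, adjusted over all regions tested in the line. In PC9, 28 of 57 member regions were called, 5 higher and 23 lower, which is 49.1% beside 31.8% of all regions tested and 38.1% of annotated regions. In H1975, 49 of 64 were called, 11 higher and 38 lower, or 76.6% beside 51.8% of all and 62.6% of annotated regions. In HCC2935, 48 of 68 were called, 7 higher and 41 lower, or 70.6% beside 37.4% of all and 45.1% of annotated regions. With the libraries summed, 21 member regions were called in PC9 (19.4% of all regions), 37 in H1975 (40.5%) and 35 in HCC2935 (32.9%).

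The direction was read against the annotated regions as a whole. Of annotated regions, PC9 had 21.5% lower and 16.5% higher, H1975 36.9% lower and 25.7% higher, and HCC2935 21.7% lower and 23.4% higher. The median log2 change of the member regions was -0.35 in PC9, -0.55 in H1975 and -0.60 in HCC2935, where annotated regions had medians of -0.03, -0.07 and 0.06. Regions of 1 gene neighbour each other and are not independent of one another. In HCC827, 0 of 24 member regions were called in edgeR and 0 in DESeq2, and 2 had an unadjusted p under 0.05, with 0.0267% of all regions and 0.0523% of annotated regions called. Replicate numbers paired the HCC827 libraries, and with the replicate number as a block 1 member region was called there, at PHLDA1, and 3.59% of all regions.

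**Figure D1:**
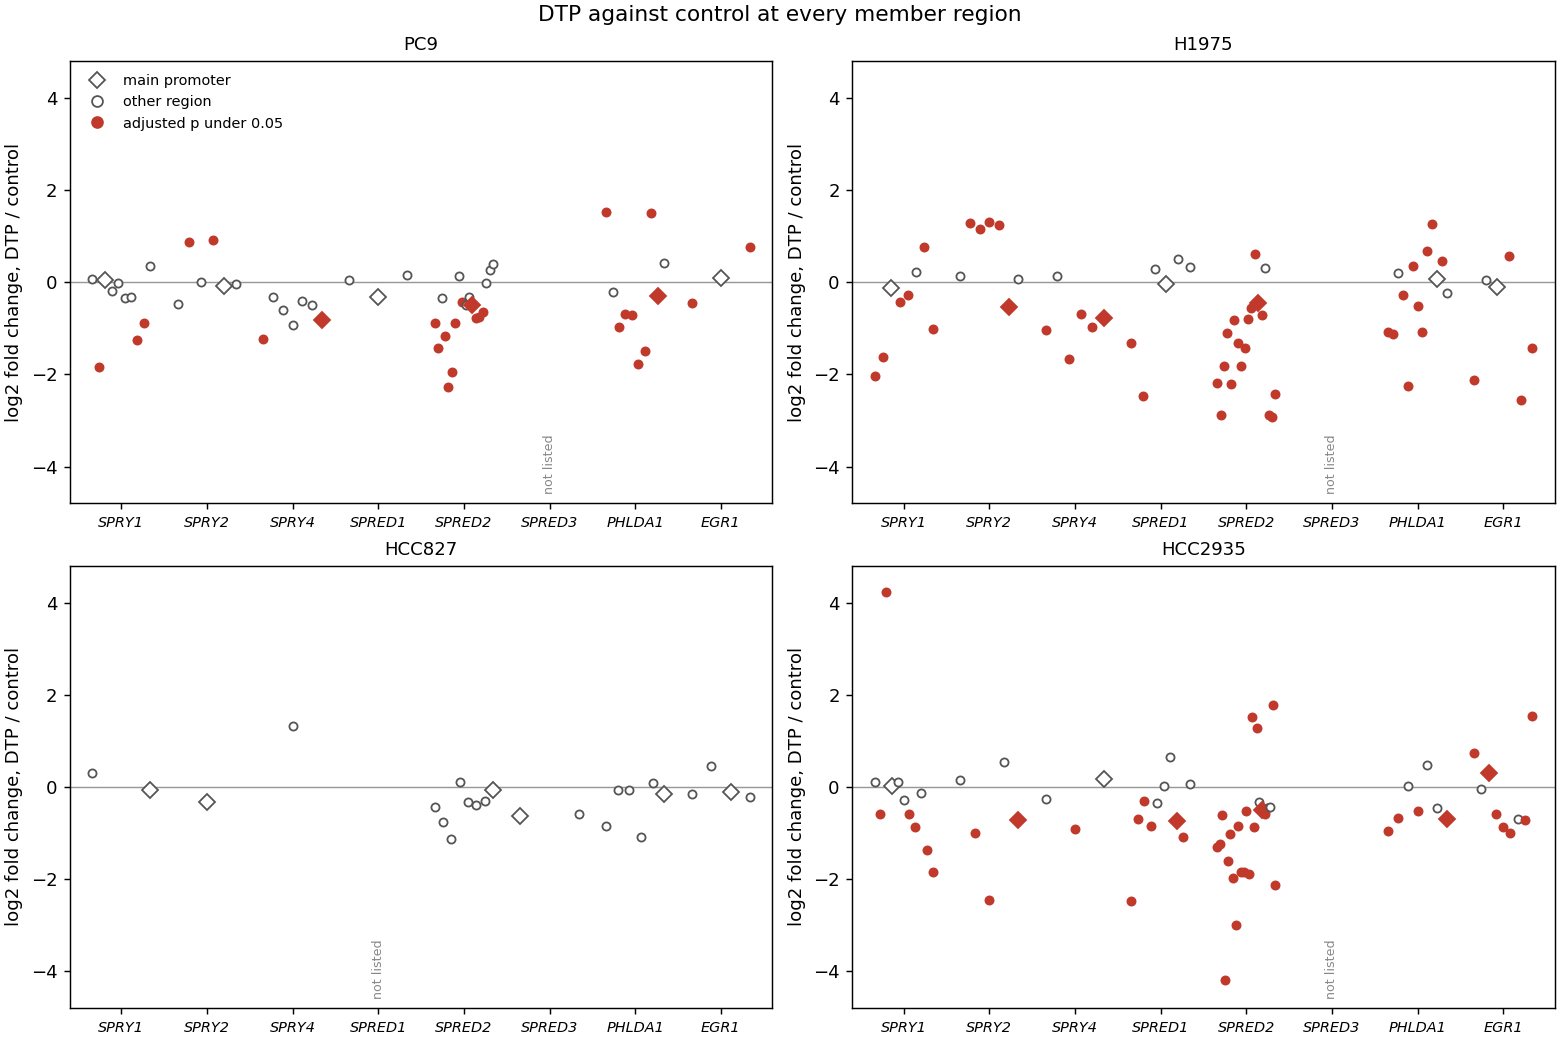
Log2 change of every member region in DTP against control cells (y axis, edgeR) by gene (x axis), with 1 panel for each line, diamonds for main promoter regions and filled symbols for regions called at an adjusted p under 0.05. Regions of a gene are drawn in order of position. Most filled SPRED2 points lie below 0 in PC9, H1975 and HCC2935, and HCC827 has no filled point.

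Regions near and far from a start were counted apart. Of member regions farther than 1 kb from an annotated start, 31 of 40 were called in H1975, 29 of them lower, while of the 17 regions within 1 kb other than the most open one, 9 rose and 6 fell. In PC9, 19 of 34 distant regions were called, 17 lower, and of the 16 others within 1 kb 3 rose and 3 fell. In HCC2935, 38 of 53 distant regions were called, 32 lower, and of the 8 others within 1 kb 0 rose and 5 fell. The median log2 change of the distant regions was -1.06 in H1975, -0.53 in PC9 and -0.60 in HCC2935, and that of the others within 1 kb 0.51, -0.25 and -0.72. The medians of these classes thus had opposite signs in H1975 and the same sign in PC9 and HCC2935, and the difference between them was not tested. The most open regions, left out of both classes, had 0 higher and 3 lower in H1975, with a median of -0.12. Over annotated regions at any distance, 62.6% were called in H1975, 38.1% in PC9 and 45.1% in HCC2935. The shares called lower were 36.9%, 21.5% and 21.7%. Shares over all distant regions were not computed, so these counts do not show whether the contrast is particular to the members. With the libraries summed, 25 of the distant regions were lower in H1975, 13 in PC9 and 23 in HCC2935. The most open region at each start, called the main promoter region here, was called for 3 of 7 genes in both PC9 and H1975 and for 5 of 7 in HCC2935 (1, 2 and 3 with the libraries summed). Over all genes with such a region, PC9 had 24% called, H1975 46.7% and HCC2935 31.6%.

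Among the Sprouty genes, SPRY4 lost promoter accessibility in PC9 and H1975 persister cells and SPRY2 in H1975 and HCC2935. The SPRY4 main promoter region (chr5:142324739-142325240 in PC9) read 22.1, 16.8 and 16.3 CPM (the count as a share of the library's counts, scaled to a fixed total) in the 3 PC9 controls and 10.9, 9.73 and 9.84 CPM in DTP cells. In H1975 it read 14.5, 12.1 and 14.6 CPM in controls and 7.66, 9.02 and 7.39 CPM in DTP cells. In HCC2935 it read 7.77, 10.5 and 7.89 CPM in controls and 9.33, 9.66 and 10 CPM in DTP cells. Every DTP library was below every control library in PC9 and H1975, and the HCC2935 groups overlapped. The log2 change was -0.83 (SE 0.15, adjusted p = 2.62e-07, edgeR) in PC9, -0.77 (SE 0.13, adjusted p = 3.43e-08) in H1975 and 0.16 in HCC2935. A joint limma fit over the 4 lines found that the change at this region differed between lines (adjusted p = 0.00551). In HCC827 this region carried no gene symbol, and it read 7.58 to 17.4 CPM in controls and 9.23 to 13.9 CPM in DTP cells.

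The SPRY2 main promoter region (chr13:80341160-80341661 in H1975) read 32.8, 31.4 and 29.6 CPM in H1975 controls and 22.5, 21.3 and 20.9 CPM in DTP cells, a log2 change of -0.54 (SE 0.08, adjusted p = 8.58e-09, edgeR). In HCC2935 it read 21.1, 23 and 17.4 CPM in controls and 12.3, 12.3 and 12.9 CPM in DTP cells, a change of -0.71 (SE 0.15, adjusted p = 2.41e-04). All DTP libraries lay below all controls in both lines. The surrounding 10 Mb of chromosome 13 moved too, with a median change of 0.45 in H1975 and -0.40 in HCC2935. With these regional medians removed the H1975 change was -1.11 and the HCC2935 change -0.37, the latter no longer called (adjusted p = 0.0641). In PC9 the region read 28, 26 and 25.8 CPM in controls and 24.7, 27.7 and 22.3 CPM in DTP cells, groups that overlap. The changes differed between the 4 lines in the joint fit (adjusted p = 0.00352).

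The same SPRY2 locus gained accessibility a short way inside the gene in H1975. At 640 bp past a start, the H1975 controls read 2.21, 2.52 and 2.53 CPM and the DTP libraries 5.49, 5.98 and 6.29 CPM, a log2 rise of 1.28 (adjusted p = 1.71e-08, edgeR). A region 99 bp past a start rose by 1.16, from 3.04 to 4.58 CPM in controls to 7.43 to 9.79 CPM in DTP cells. In all, 4 of the 7 SPRY2 regions rose in H1975 and 1, the main promoter region, fell. With regional medians removed, 4 rose and 3 fell, and the median log2 change over the 7 went from 1.16 to 0.59. In PC9 the region 599 bp past a start rose by 0.88 (adjusted p = 3.76e-04) and that 289 bp past a start by 0.91 (adjusted p = 0.00425).

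Among the SPRED genes, the SPRED2 main promoter region fell in 3 lines. It read 15.5, 15 and 18.7 CPM in PC9 controls and 13.8, 8.69 and 12.4 CPM in DTP cells. It read 18.8, 18.4 and 14.7 CPM in H1975 controls and 9.26, 13.5 and 14.6 CPM in DTP cells. In HCC2935 it read 21.1, 23.5 and 16.8 CPM in controls and 15.5, 12.4 and 15.4 CPM in DTP cells. The groups did not overlap in these 3 lines, although the highest DTP library (14.6 CPM) and the lowest control (14.7 CPM) nearly met in H1975. The log2 changes were -0.49 (adjusted p = 0.0036, edgeR), -0.46 (adjusted p = 2.20e-04) and -0.51 (adjusted p = 0.00905) in PC9, H1975 and HCC2935, and none was called with the libraries summed (adjusted p = 0.167, 0.105 and 0.0793). In HCC827 the region read 10.3, 12 and 15 CPM in controls and 14.3, 8.16 and 13.3 CPM in DTP cells.

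SPRED1 fell at its main promoter region in HCC2935 alone of the 3 lines that list it, from 12.6, 20.7 and 13.4 CPM to 8.54, 9.94 and 8.9 CPM (log2 change -0.75, adjusted p = 0.00131, edgeR). No difference between lines was found at this region in the joint fit (adjusted p = 0.078). No region with the SPRED3 symbol covered its outermost start. Its main promoter region, 4.2 kb inside the gene and 682 bp past another annotated start, was weakly open. In HCC827 it read 5.33, 5.99 and 4.21 CPM in controls and 3.23, 3.27 and 3.37 CPM in DTP cells, on counts of 6 to 17 reads, and was not called. In HCC827 the region matching the SPRED1 promoter carried no symbol and read 3.45 to 6.85 CPM in controls and 3.23 to 4.72 CPM in DTP cells. The region matching this SPRED3 region inside the gene, without a symbol in H1975, read 2.9 to 3.01 CPM in controls there. It read 0.999 to 2.29 CPM in H1975 DTP cells.

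Among the early targets, PHLDA1 fell at its main promoter region in PC9 and HCC2935, and EGR1 rose slightly in HCC2935. PHLDA1 (chr12:76031377-76031878 in PC9) read 28, 27.4 and 30 CPM in PC9 controls and 22.6, 25.2 and 21.5 CPM in DTP cells, a log2 change of -0.30 (SE 0.11, adjusted p = 0.017, edgeR) that was not called with the libraries summed (adjusted p = 0.405). In HCC2935 it read 16.3, 17.5 and 19.2 CPM in controls and 12, 9.66 and 10.8 CPM in DTP cells, a change of -0.70 (SE 0.16, adjusted p = 5.32e-04). In H1975 the change was 0.07 and not called, and the lines differed in the joint fit (adjusted p = 3.10e-04). Just inside PHLDA1, at 338 and 343 bp past the start, a small region rose instead, from 1.62 to 2.8 CPM to 5.06 to 8.07 CPM in PC9 (a log2 rise of 1.5, adjusted p = 1.19e-06) and from 1.45 to 2.52 CPM to 4.12 to 5.17 CPM in H1975 (1.26, adjusted p = 8.52e-07).

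The EGR1 main promoter region was the most open of the set in PC9, H1975 and HCC827 controls. It read 38.1, 37.7 and 37.7 CPM in PC9 controls and 43.6, 38.9 and 39.4 CPM in DTP cells. In H1975 it read 51.9, 46.9 and 44 CPM in controls and 44.1, 43.5 and 44.2 CPM in DTP cells. In HCC2935 it read 28.3, 27.2 and 29.5 CPM in controls and 30.4, 35.2 and 39.6 CPM in DTP cells. The HCC2935 change of 0.31 was called (adjusted p = 0.0354, edgeR), was 0.09 with regional medians removed, and was not called with the libraries summed. The joint fit found no difference between lines at this region (adjusted p = 0.0899).

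**Figure D2:**
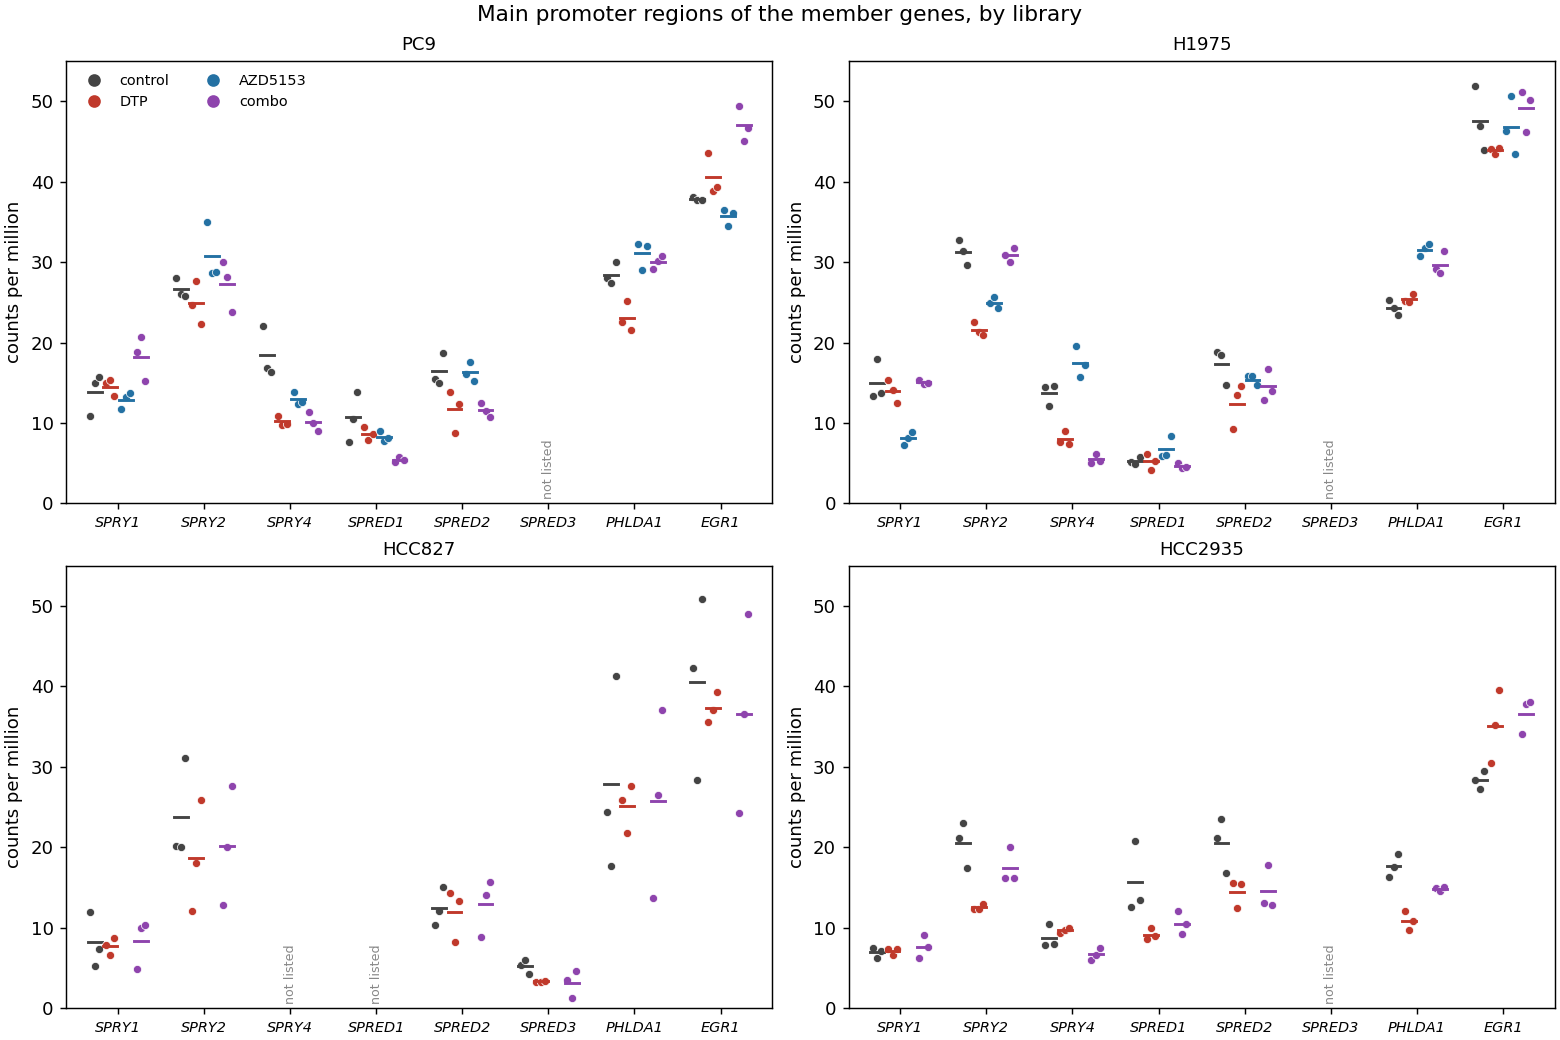
CPM (y axis) at the main promoter region of each member gene (x axis) in each library (points), with the group mean as a line, 1 colour per group and 1 panel per line. SPRY4 libraries of DTP and combo cells sit below the controls in PC9 and H1975, and the EGR1 groups overlap or lie close in most lines.

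Among the members, SPRED2 had the most listed regions and the most called lower in persister cells of PC9, H1975 and HCC2935 (chr2:65307175-65432599, minus strand). Its positions are given here as the distance of a region's centre from the outermost start, counted along the gene. In PC9, 11 of its 18 regions were lower and none higher. In H1975, 16 of 18 were lower and 1 higher, and in HCC2935, 18 of 23 were lower and 3 higher. Summing the libraries left 8, 14 and 13 regions lower. The median log2 change over its regions was -0.57, -1.37 and -0.88, beside medians of -0.23, -0.03 and -0.14 for the surrounding 10 Mb. In HCC827, 0 of 8 regions were called. Other members came near SPRED2 as a share, with 6 of 10 PHLDA1 regions lower in PC9 and 5 of 6 at SPRY4 in H1975. In HCC2935, 6 of 10 SPRED1 regions were lower. Over annotated regions the shares lower were 21.5% in PC9, 36.9% in H1975 and 21.7% in HCC2935.

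Summed over its regions, SPRED2 accessibility was 204, 206 and 214 CPM in PC9 controls and 138, 127 and 130 CPM in DTP cells. In H1975 it was 267, 259 and 250 CPM in controls and 103, 117 and 117 CPM in DTP cells. In HCC2935 it was 338, 307 and 280 CPM in controls and 159, 168 and 157 CPM in DTP cells. The 3 lines thus showed no overlap between the groups. In HCC827 the sums were 124, 108 and 131 CPM in controls and 76.6, 83.8 and 122 CPM in DTP cells, where 1 DTP library lay within the control range. The numbers pair those libraries, and the DTP sum was below that of the same-numbered control in each of the 3 pairs.

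SPRED2 had 5 positions with a region in all 4 lines, and the DTP level at each was called lower in 3 lines, all but HCC827. Of such positions at other members, 1 was called lower in 3 lines, at PHLDA1 77.6 kb past the start. The share over all positions found in the 4 lines was not computed, so how unusual this is was not shown. The position 54.7 to 54.8 kb inside SPRED2 (chr2:65377587-65378088 in PC9) overlapped an annotated internal start. It read 13.5, 16.4 and 13.5 CPM in PC9 controls and 4.67, 2.69 and 3.82 CPM in DTP cells, a log2 change of -1.95 (SE 0.20, adjusted p = 5.81e-20, edgeR). H1975 read 25.7, 24.8 and 22.9 CPM in controls and 8.58, 7.8 and 10.7 CPM in DTP cells, a change of -1.43 (SE 0.11, adjusted p = 1.64e-28). HCC2935 read 31.8, 26.7 and 23.7 CPM in controls and 6.8, 10.2 and 5.82 CPM in DTP cells, a change of -1.84 (SE 0.18, adjusted p = 1.53e-11). The highest DTP library stood far below the lowest control in each of these lines, while the HCC827 change was -0.40 (SE 0.62) and was not called. The changes at this position differed between the 4 lines in the joint fit (adjusted p = 0.00291). Which of the lines differed from which was not tested.

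A region about 65 kb inside SPRED2, listed in the same 3 lines, fell as steeply. In PC9 it went from 16, 14.6 and 15.5 CPM to 2.53, 3.72 and 3.21 CPM (-2.28, SE 0.20, adjusted p = 4.20e-25, edgeR), the largest fall of any member region in that line. In H1975 it went from 17.8, 16.8 and 16.9 CPM to 4.12, 5.27 and 5.09 CPM (-1.82, adjusted p = 9.21e-30), and in HCC2935 from 21.3, 16.2 and 18.4 CPM to 5.06, 5.94 and 4.53 CPM (-1.85, adjusted p = 3.86e-10). At 65.8 kb the changes were -1.16, -1.32 and -0.85, at 49.4 to 49.7 kb -0.88, -0.80 and -0.52, and at 112.5 to 112.6 kb -1.43, -1.81 and -0.61 in PC9, H1975 and HCC2935. At 122.8 kb they were -0.88, -2.89 and -1.24. Called falls thus ran from the outer start to near the far end of the gene in these 3 lines.

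Some SPRED2 regions moved in 1 line. In H1975 a region 84.4 kb upstream of the outer start went from 14.9, 19.6 and 15.9 CPM to 1.49, 2.23 and 2.8 CPM (-2.93, adjusted p = 1.45e-43, edgeR), the largest fall in that line, and had no listed counterpart in PC9 or HCC2935. In HCC2935 the region 107.5 kb inside the gene went from 9.44, 7.49 and 3.16 CPM to 0.158, 0.276 and 0.647 CPM, on 1, 2 and 4 reads, so the size of its fitted change of -4.20 is imprecise. Rises were called in HCC2935 at 21.5 kb upstream, from 1.11, 0.998 and 1.58 CPM to 3.79, 4.14 and 4.69 CPM (1.78, adjusted p = 1.62e-04), and 25.8 kb inside, from 3.52, 1.25 and 1.05 CPM to 4.74, 6.49 and 6.79 CPM (1.51, adjusted p = 2.37e-04).

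**Figure D3:**
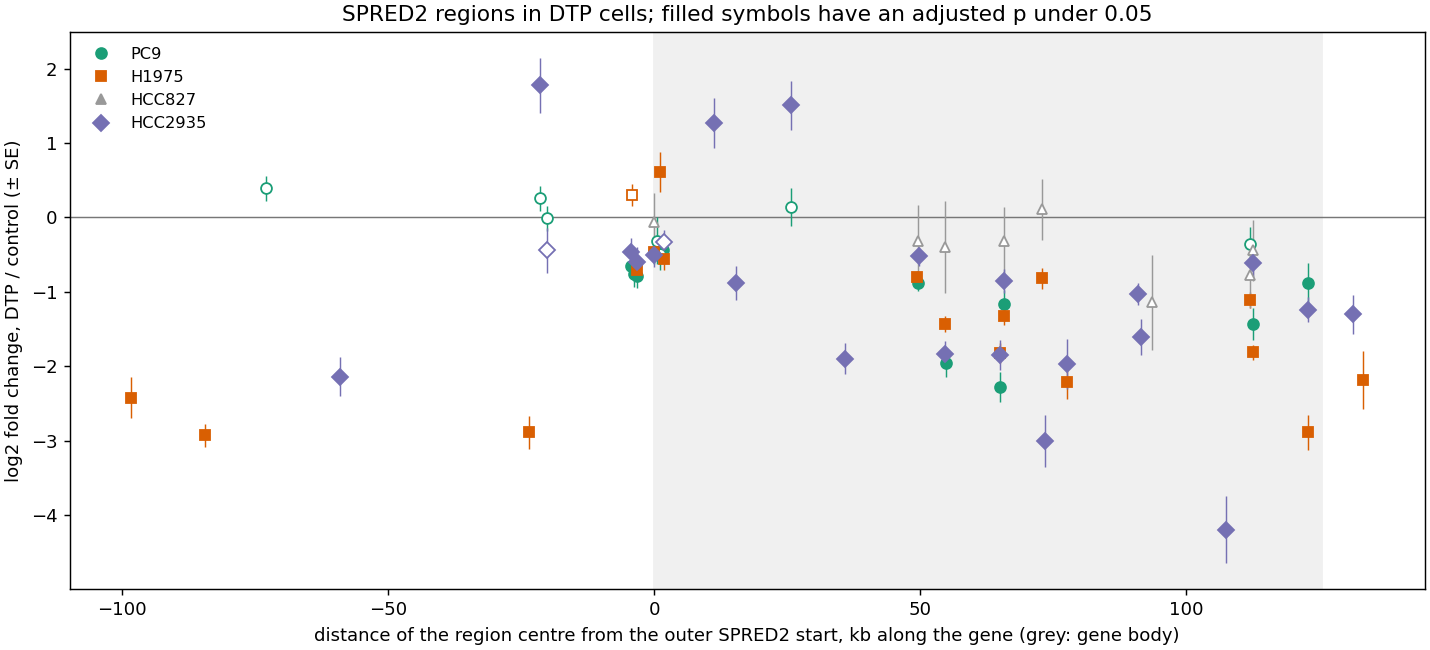
Log2 change of each SPRED2 region in DTP against control cells (y axis, bars are ± SE) against the distance of its centre from the outermost start in kb (x axis, positive into the gene, gene body in grey), with 1 symbol per line, filled where called. From 49.4 to 65.8 kb all symbols of PC9, H1975 and HCC2935 are filled and below 0.

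At SPRY1, some distant regions fell. It had 3 of 10 regions called lower in PC9, 5 of 8 in H1975 and 5 of 11 in HCC2935. Of annotated regions, 21.5%, 36.9% and 21.7% were called lower in these lines. At SPRY1, 0, 1 and 1 regions were called higher. At its main promoter region no change was called, but with regional medians removed the change was -0.31 in H1975 (adjusted p = 0.0203, edgeR) and turned from 0.02 to -0.58 in HCC2935 (adjusted p = 0.0414), where the surrounding 10 Mb had a median of 0.62. A region 56.0 kb upstream read 11.7, 9.13 and 8.73 CPM in PC9 controls and 2.14, 3.1 and 2.81 CPM in DTP cells (-1.85, adjusted p = 6.42e-13, edgeR). In H1975 it read 21.9, 20.6 and 18.4 CPM in controls and 5.95, 6.89 and 6.69 CPM in DTP cells (-1.63, adjusted p = 1.82e-29). In HCC2935 it read 11.3, 8.49 and 5.79 CPM and 6.32, 5.66 and 5.5 CPM, a smaller change of -0.58 (adjusted p = 0.0375) with overlapping groups. The region 15.9 to 16.0 kb past a start fell by 1.26 in PC9, 1.01 in H1975 and 0.59 in HCC2935. By contrast, the region 47.0 kb upstream in HCC2935 was nearly closed in controls at 0.185, 0 and 0.526 CPM (1, 0 and 2 reads), and read 5.53, 4.97 and 3.23 CPM in DTP cells.

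At SPRY2, a region 62.8 kb past a start fell in HCC2935 from 6.48, 11.2 and 6.05 CPM to 1.42, 1.66 and 1.13 CPM (-2.45, adjusted p = 2.66e-08, edgeR). At SPRY4, the region 48.3 kb past the start in H1975 fell from 4.84, 5.65 and 5.9 CPM to 1.26, 1.72 and 2.1 CPM (-1.67, adjusted p = 7.71e-11). At SPRED1, 2 neighbouring regions 35.1 and 34.6 kb upstream fell in H1975 by 1.31 and 2.46 (adjusted p = 2.30e-15 and 1.98e-22), and a region 41.6 kb upstream fell by 2.47 in HCC2935 (adjusted p = 6.40e-07). None of the 3 SPRED1 regions was called in PC9. Each of these falls was called with the libraries summed as well.

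At PHLDA1, the region 10.9 kb past the start went from 13.2, 12.6 and 14.7 CPM to 3.7, 3.31 and 4.82 CPM in PC9 (-1.77, adjusted p = 1.51e-16, edgeR), and a neighbour at 10.2 kb fell by 1.5. In HCC827 the 10.9 kb region read 14.7, 12.8 and 18.7 CPM in controls and 3.69, 5.99 and 11.5 CPM in DTP cells, all below the controls. It was the 1 member region called there with the replicate block (adjusted p = 0.0436). In H1975 a region 52.0 kb past the start fell by 2.25, from 6.99 to 8.3 CPM to 1.2 to 2.29 CPM. The regions 52.0 kb and more past the start lie in introns, and 1 in an exon, of another gene, so their link to PHLDA1 rests on the authors' annotation by nearest start. One of them, at 88.9 kb, rose in PC9 from 1.27, 0.811 and 0.992 CPM to 3.5, 2.28 and 3.01 CPM (1.52, adjusted p = 0.00136). Links also rest on nearest start for upstream regions annotated to an intron, exon or 3′ UTR outside the member. These include SPRED1 34.6 to 41.6 kb, SPRED2 20.1, 21.5 and 84.4 kb, and SPRY1 47.0 and 80.7 kb upstream.

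At EGR1, a region 23 kb past the start moved in opposite directions in different lines. It rose in PC9 from 3.56, 4.46 and 4.56 CPM to 6.03, 7.45 and 8.23 CPM (0.76, adjusted p = 0.00449, edgeR). It rose in HCC2935 from 3.7, 3.49 and 4.74 CPM to 12.3, 11.7 and 10.4 CPM (1.54, adjusted p = 1.21e-06). It fell in H1975 from 9.54, 7.93 and 7.23 CPM to 2.74, 3.04 and 3.3 CPM (-1.42, adjusted p = 1.01e-12). No library of one group overlapped the other in these lines, and HCC827, with 6.27 to 7.63 CPM in controls and 5.39 to 6.53 CPM in DTP cells, was not called. The joint fit gave an adjusted p of 7.46e-11 for a difference between the lines, the smallest of the 57 member regions matched in all lines. The PC9 rise was not called with the libraries summed (adjusted p = 0.0627). H1975 also lost regions 21.5 kb past (-2.56) and 3.7 kb before (-2.12) the EGR1 start.

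Line differences were common in the set. Of the 57 matched member regions, 33 had a DTP change that differed between lines, beside 42.7% of all matched regions. Another was SPRY1 80.7 kb upstream, in a 3′ UTR outside SPRY1, which fell in H1975 from 6.78, 5.29 and 4.94 CPM to 1.37, 1.42 and 1.3 CPM (-2.03, adjusted p = 1.19e-13, edgeR). In PC9 it read 12.2, 10.8 and 12.9 CPM in controls and 12.8, 13 and 11.4 CPM in DTP cells, and in HCC2935 8.88, 5.49 and 9.47 CPM and 9.65, 9.11 and 6.95 CPM. The groups overlapped in both of those lines, and the joint adjusted p was 1.07e-08.

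**Figure D4:**
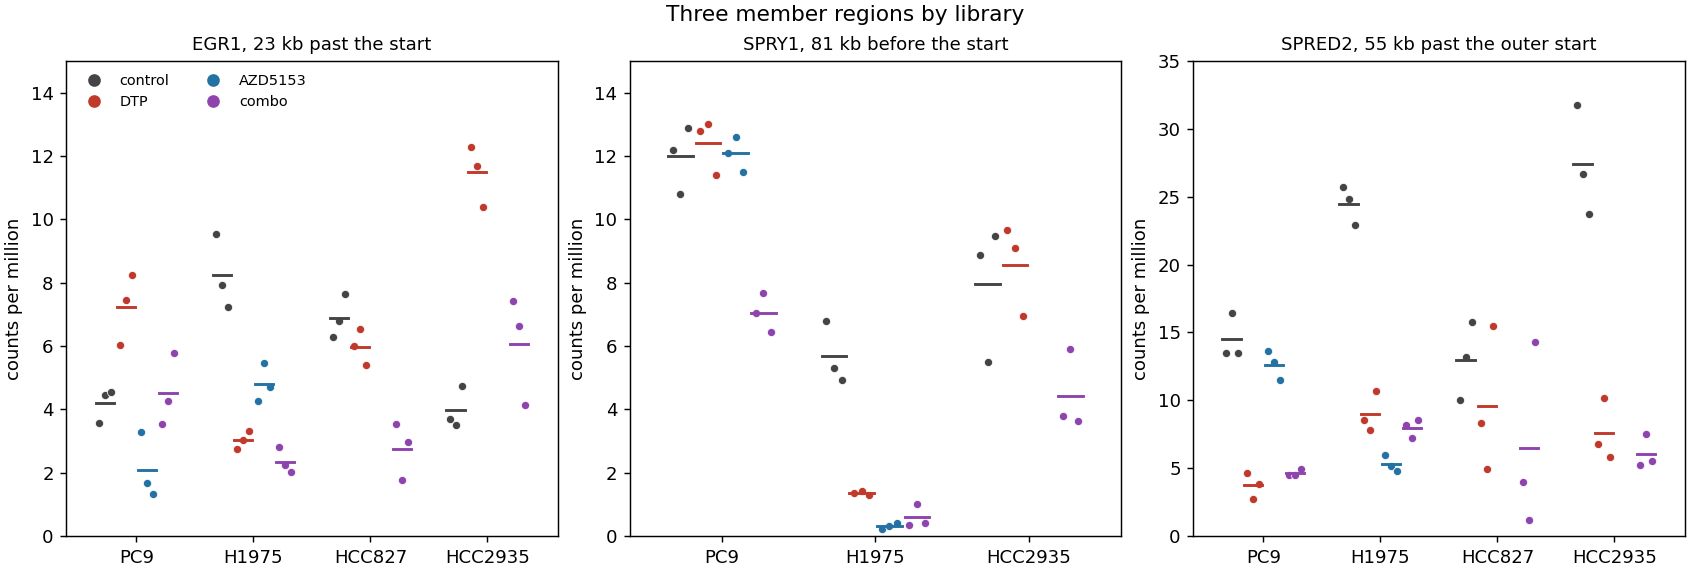
CPM per library (points) with group means (lines) at 3 regions, namely EGR1 23 kb past the start, SPRY1 81 kb upstream and SPRED2 55 kb inside the gene, in each line that lists them. EGR1 rises from control to DTP in PC9 and HCC2935 and falls in H1975, SPRY1 falls in H1975, and SPRED2 falls in PC9, H1975 and HCC2935.

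The combo group was compared with DTP cells, as 21 days of osimertinib followed by 3 days of AZD5153 against 24 days of osimertinib. Whether osimertinib was kept on is not given, so an effect of AZD5153 and one of osimertinib withdrawal cannot be told apart. In PC9, 17 of 57 member regions were called, 2 higher and 15 lower, or 29.8% beside 22.4% of all and 29.3% of annotated regions (15.7% higher and 13.6% lower). In H1975, 16 of 64 were called, 10 higher and 6 lower, or 25% beside 21% of all and 32.6% of annotated regions (22% and 10.6%). In HCC2935, 17 of 68 were called, 4 higher and 13 lower, or 25% beside 8.39% of all and 13.2% of annotated regions (4.17% and 9.03%). In HCC827, 0 of 24 were called in edgeR and DESeq2, 3 had an unadjusted p under 0.05, and 0% of all regions were called (0.0158% with the replicate block, none of them a member). With the libraries summed, 4 regions were called in PC9 (8.13% of all regions), 1 in H1975 (6.07%) and 11 in HCC2935 (5.24%). Of the PC9 calls, 8 were SPRED2 regions, all lower.

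Over SPRED2 the combo sums were 99.7, 96.5 and 94.5 CPM in PC9 and 122, 144 and 125 CPM in HCC2935, below every DTP library of the line. In H1975 they were 105, 108 and 110 CPM, within the DTP range. In HCC827 they were 47.2, 53.5 and 96.9 CPM, each below the same-numbered DTP library, and none of its 8 regions was called. The largest PC9 fall was at SPRED2 20.1 kb upstream, from 9.34, 8.9 and 9.84 CPM in DTP cells to 4.31, 2.56 and 3.22 CPM in combo cells (-1.46, adjusted p = 1.01e-08, edgeR). In HCC2935 the region 49.8 kb past the SPRY1 start read 6.64, 5.8 and 7.12 CPM in DTP cells and 2.21, 1.23 and 2.24 CPM in combo cells, a change of -1.81. The SPRY1 region 47.0 kb upstream that opened in HCC2935 persister cells rose further to 9.64, 7.48 and 7.94 CPM (0.85, adjusted p = 0.0141).

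Of the 7 main promoter regions, 2 rose and 1 fell in PC9 and in H1975, and 1 rose and 0 fell in HCC2935. Over all genes 23.9%, 37.9% and 7.96% rose and 7.15%, 4.77% and 2.09% fell in these lines. SPRY2 rose in H1975 to 30.9, 30 and 31.7 CPM (0.52, adjusted p = 9.07e-08, edgeR), beside 29.6 to 32.8 CPM in controls, and in HCC2935 to 16.1, 20 and 16.1 CPM (0.49, adjusted p = 0.0304). EGR1 rose in PC9 by 0.21 (adjusted p = 0.0391) and the PHLDA1 main promoter region in H1975 by 0.23 (adjusted p = 0.0288), neither of them called with regional medians removed (adjusted p = 0.106 and 0.335). PHLDA1 rose in PC9 to 29.2, 30.2 and 30.7 CPM (0.38, adjusted p = 0.00281), and in H1975 a region 1.2 kb past its start went from 2.52, 2.13 and 2.6 CPM to 5.51, 5.57 and 5.92 CPM (1.23, adjusted p = 2.53e-07). SPRY4 went the other way in H1975, to 5.04, 6.13 and 5.22 CPM (-0.56, adjusted p = 0.00341). SPRED1 fell in PC9 from 9.54, 7.86 and 8.63 CPM in DTP cells to 5.09, 5.75 and 5.36 CPM (-0.69, adjusted p = 0.00631). With the libraries summed none of the 7 main promoter regions was called in PC9, H1975 or HCC2935 (adjusted p = 0.145 and 0.251 for SPRY2 in H1975 and HCC2935, 0.341 for PHLDA1 in PC9, 0.193 for SPRY4 in H1975 and 0.126 for SPRED1 in PC9). The EGR1 region at 23 kb, higher in HCC2935 persister cells, fell again to 7.43, 6.62 and 4.14 CPM (-0.90, adjusted p = 0.00203).

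AZD5153 alone was compared with control cells, which are the same libraries the DTP cells were compared with, so the 2 sets of changes share the error of the controls. In PC9, 25 of 57 member regions were called, 5 higher and 20 lower, or 43.9% beside 25.8% of all and 32.4% of annotated regions (14.4% higher and 18% lower). In H1975, 49 of 64 were called, 16 higher and 33 lower, or 76.6% beside 58.1% of all and 72.2% of annotated regions (29% and 43.2%). Of the 7 main promoter regions in H1975, 3 were higher and 2 lower, beside 41.9% and 25% over all genes. Of the others within 1 kb, 7 were higher and 5 lower, and of the distant regions 6 and 26. With regional medians removed, 53.3% of all H1975 regions were called, and the main promoter regions had 5 higher and 1 lower. In that setting the others within 1 kb had 8 higher and 5 lower, and the distant regions 10 and 21. With the libraries summed, 15 were called in PC9 (14.1% of all regions) and 41 in H1975 (48.4%). Over SPRED2 the sums were 160, 168 and 153 CPM in PC9 and 121, 110 and 112 CPM in H1975, below every control library. In PC9, 9 SPRED2 regions fell and 1 rose, and in H1975 12 fell and 2 rose. The surrounding 10 Mb had a median of -0.64 in H1975. With regional medians removed, 10 SPRED2 regions fell and 5 rose there, and the change at the SPRED2 main promoter region turned from -0.16 (not called) to 0.43 (adjusted p = 0.00104, edgeR).

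In H1975 some regions were lowest with AZD5153 alone. The SPRED2 region 49.4 kb inside the gene read 37.6, 35.9 and 32.4 CPM in controls, 19.7, 21.4 and 19.8 CPM in DTP cells, 7.84, 5.45 and 6.73 CPM in AZD5153 cells and 15.2, 14.5 and 16.2 CPM in combo cells. The SPRED1 region 35.1 kb upstream read 11.6, 12.4 and 11.8 CPM in controls, 4.12, 5.88 and 4.39 CPM in DTP cells, 0.807, 1.24 and 1.53 CPM in AZD5153 cells and 5.98, 6.8 and 6.52 CPM in combo cells. At both, every AZD5153 library was below every library of the other 3 groups. The SPRY2 region 99.6 kb past a start read 7.88, 5.89 and 5.78 CPM in controls and 5.83, 8.61 and 6.69 CPM in DTP cells, but 0.461, 0.311 and 0.306 CPM (4, 2 and 3 reads) in AZD5153 cells and 7.03, 4.79 and 5.52 CPM in combo cells. At the SPRY1 main promoter region, AZD5153 cells read 7.27, 8.09 and 8.87 CPM beside 13.4, 17.9 and 13.7 CPM in controls (-0.89, adjusted p = 2.37e-10, edgeR), and combo cells 15.4, 14.8 and 15 CPM.

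A test of the interaction asked whether the AZD5153 effect differed between persister and untreated cells. In persister cells this effect was combo against DTP, with the same limit on osimertinib. In H1975, 43 of 64 member regions were called, 33 with a more positive effect in persister cells, or 67.2% beside 42.5% of all and 59.8% of annotated regions (40% more positive and 19.8% more negative). The median of the member regions was 0.49, where annotated regions had a median of 0.25. Of the 7 main promoter regions in H1975, 3 were more positive and 1 more negative, beside 29.6% and 21.3% over all genes. The others within 1 kb had 5 and 7, and the distant regions 25 and 2. With regional medians removed, 37.6% of all H1975 regions were called, and the balance at main promoter regions turned to 1 more positive and 3 more negative. In that setting the others within 1 kb had 5 and 8, and the distant regions 19 and 5. In PC9, 9 of 57 were called, 4 more positive and 5 more negative, or 15.8% beside 13.8% of all and 18.9% of annotated regions (10.8% and 8.1%). With the libraries summed the counts were 32 in H1975 (31.1% of all regions) and 2 in PC9 (4.83%). The largest H1975 value was at the SPRY2 region 99.6 kb past a start (3.81), on the few reads given above. In PC9 it was at SPRED2 21.5 kb upstream, which read 7.37, 7.91 and 10.3 CPM in controls, 10.5, 12.6 and 8.03 CPM in DTP cells, 0.961, 0.928 and 1.32 CPM in AZD5153 cells and 9.4, 9.16 and 11.6 CPM in combo cells (2.94, adjusted p = 1.29e-13, edgeR). Only the libraries with AZD5153 and no osimertinib were low there.

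Downstream of SPRY4 some regions opened with AZD5153 in untreated cells. In PC9 the region 48.3 kb past the start read 2.8, 2.23 and 1.98 CPM in controls and 5.57, 6.13 and 6.58 CPM in AZD5153 cells (1.40, adjusted p = 8.93e-06, edgeR), but 1.57, 0.639 and 0.429 CPM in combo cells. In H1975 the region 72.5 kb past the start read 1.94, 1.44 and 2.41 CPM in controls and 10.5, 8.71 and 8.46 CPM in AZD5153 cells (2.25, adjusted p = 6.69e-22), and 2.93, 3.56 and 3.41 CPM in combo cells. Its PC9 counterpart at 72.3 kb rose by 1.23. The H1975 region at 48.3 kb went the other way and fell to 0.577, 0.622 and 0.204 CPM in AZD5153 cells (-3.59).

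**Figure D5:**
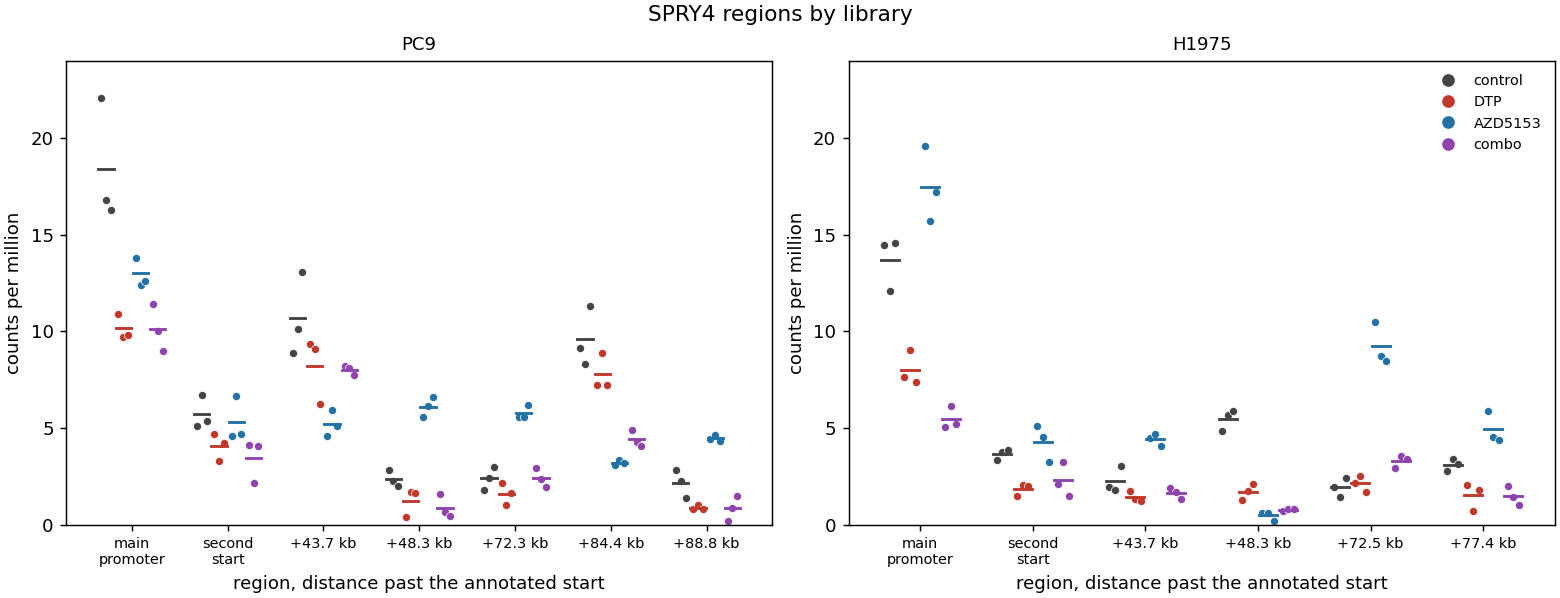
CPM per library (points) with group means (lines) at each SPRY4 region of PC9 and H1975 (x axis, ordered by distance past the annotated start). AZD5153 cells are highest at 48.3 kb in PC9 and at 72.5 kb in H1975, and lowest at 48.3 kb in H1975.

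Other genes of the pathway were read at their main promoter regions. The transcriptional ERK output list (DUSP4, DUSP6, CCND1, EPHA2, EPHA4, ETV4 and ETV5) had 2 of 7 lower in PC9 persister cells, 4 of 7 each in H1975 and HCC2935 and 0 of 7 in HCC827, and none higher. In HCC2935, CCND1 changed by -0.63 where the surrounding 10 Mb had a median of -0.68. Over all main promoter regions the shares called lower were 10.2% (PC9), 27.1% (H1975) and 10.4% (HCC2935), and called higher 13.8%, 19.5% and 21.2%. DUSP6, a phosphatase that switches off ERK, fell in the 3 lines. It went from 33.7 to 35.5 CPM to 20 to 21.9 CPM in PC9 (-0.71, adjusted p = 2.49e-10, edgeR), from 24.9 to 30.6 CPM to 8.23 to 11.2 CPM in H1975 (-1.54, adjusted p = 3.25e-32) and from 26.2 to 31.6 CPM to 14.9 to 19 CPM in HCC2935 (-0.78, adjusted p = 3.23e-05). Of the cascade itself and its partners, 1 rose and 3 fell of 14 in PC9 and in H1975, and 3 rose and 0 fell of 13 in HCC2935, where CBL changed by 0.69 beside a regional median of 0.66. MAPK3, which encodes ERK1, fell by 0.60 in PC9 (adjusted p = 0.00113) and by 1.37 in H1975 (adjusted p = 1.83e-19) and rose by 0.61 in HCC2935.

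Of 12 other immediate early genes tested, PC9 persister cells had 0 higher and 2 lower, H1975 had 1 higher and 5 lower, and HCC2935 had 1 higher and 3 lower of 11 tested. EGR3, a relative of EGR1, fell by 0.94 in PC9 (adjusted p = 1.20e-05, edgeR) and by 1.20 in H1975 (adjusted p = 1.63e-09). FOSL1, which encodes an AP-1 subunit, fell by 0.72 in HCC2935 (adjusted p = 1.13e-06), where the surrounding 10 Mb had a median of -0.68. In combo against DTP cells 7 of these genes rose and 2 fell in PC9, H1975 had 5 higher and 0 lower, and HCC2935 had 0 higher and 1 lower. All main promoter regions had 23.9% higher and 7.15% lower in PC9, 37.9% and 4.77% in H1975, and 7.96% and 2.09% in HCC2935 in that comparison.

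Likeness of pattern was measured at main promoter regions over the 14 group means, as Pearson's r of log2 CPM centred within each line, among 9285 genes with such a region in all 4 lines. The nearest genes were ZFAND1 (0.97) and CMTR2 (0.96) for SPRY1, FGF11 (0.92) and RPL39L (0.91) for SPRY2, and WWTR1 (0.95) and GLDC (0.93) for SPRED2. They were KHK (0.89) and STRN (0.89) for PHLDA1, and EBP (0.94) and RCC1 (0.92) for EGR1. Groups of a line share controls and culture, and the best of 9285 genes is high in any such search. For SPRY1 the most open start in HCC827 was another start of the gene than in the other lines.

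The authors' peaks, called per library, were also read. They come from the same libraries as the counts and are not an independent measure. Main promoter regions were chosen as the most open, so a peak there was likely beforehand. A peak overlapped the main promoter region in 84 of 84 cases for each of PC9 and H1975, 63 of 63 for HCC2935 and 47 of 54 (87%) for HCC827. Of the other member regions, PC9 had 91% overlapped, H1975 90.1%, HCC2935 82.3% and HCC827 80.2%. SPRED3 had a peak in 6 of 9 libraries, SPRY1 in 39 of 42 and SPRED2 in 41 of 42, while SPRY2, SPRY4, SPRED1, PHLDA1 and EGR1 had one in every library tested.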

How the data were processed

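The authors deposited, for each of 4 lines, a table of raw counts per region (502 bp wide) and a table of the annotated regions with gene symbols, whose counts were used as deposited. They also deposited a peak list per library with q values as −log10, of which only peak positions were used here. Per the labels, processing used hg38 with BWA 0.7.17, SAMtools 1.9, deepTools 3.4, MACS2 2.2.6, featureCounts 2.0.0 and ChIPseeker 1.29.1, with no role or order given. Titles and design text give ATAC-seq while the extraction protocol describes H3K27ac immunoprecipitation, and the values were read as ATAC-seq. Counts cover listed regions and not all reads, and replicate numbers come from the titles.

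Each line was fitted once over all its groups in edgeR 4.0.16 (R 4.3.3) with filterByExpr, TMM factors and group means. Calls used the quasi-likelihood test with Benjamini-Hochberg adjustment over all regions of the line. All 213 member regions passed the filter. CPM values divide a count by the total of the library's counts in listed regions after TMM scaling, and log2 changes are from the fit (prior count of 2 for log2 CPM). Lines were compared in limma 3.58.1 (voom with quality weights per line) on regions matched by a reciprocal overlap of at least 50%. The main promoter region is the most open region of a gene within 1000 bp of an annotated start. Regional medians are over bins of 10 Mb. Alternatives were no filter, other scaling, DESeq2 1.42.0, a replicate block, removal of regional medians, summed libraries, and leaving out each library. Scripts were tested on simulated data.

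Named regions were the main promoter regions and, per line and comparison, the largest rise and fall among called regions without overlap between groups. Other regions were chosen after their values were seen. The members, gene lists and tests were chosen with earlier results of these data known. Deviations of same-numbered libraries correlated at 0.183 to 0.839 in HCC827, so the numbers pair those libraries, and at -0.0548 to 0.0242 in H1975, -0.0276 to 0.0189 in PC9 and -0.176 to 0.293 in HCC2935, so they do not there. No genome sequence was used, and sequences of distant regions were not analysed here.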

Additional observations from a re-analysis of the deposited data

Results flagged for a closer look

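The effect of AZD5153 differed between persister and untreated cells, by the interaction in the edgeR fit, at 11 of the named regions. The effect in persister cells was again combo against DTP, with the limit on osimertinib given above. Regions named as the largest called rise or fall of this interaction (3.81 and -2.68 in H1975, 2.94 and -1.81 in PC9) were called by rule. Of all regions tested, 42.5% were called in H1975 and 13.8% in PC9. On the log2 scale, the effect in persister cells minus that in untreated cells was 0.38 at the SPRED2 main promoter region in H1975, 1.01 at that of SPRY1, 0.85 at that of SPRY2 and -0.92 at that of SPRY4. The surrounding 10 Mb had medians of 0.65 at SPRED2 and 0.77 at SPRY2, so these 2 values were near the regional shift. At distant regions in H1975 it was 2.11 at SPRED2 84.1 kb before the nearest start, 2.86 at SPRY1 80.7 kb upstream, 3.81 at SPRY2 99.6 kb past a start and -1.62 at SPRY4 72.5 kb past the start. At SPRED2 35.1 kb past the nearest start in H1975 it was -2.68, on counts of 18, 15 and 21 in control, 34, 35 and 46 in AZD5153, 2, 8 and 4 in DTP and 2, 2 and 0 in combo libraries. In PC9 it was 2.94 at SPRED2 21.2 kb before the nearest start and -1.81 at SPRY4 48.3 kb past the start.

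The DTP change differed between cell lines, by the F test of the joint limma fit, at 9 named regions. Of all matched regions, 42.7% were called. Some regions were named for a large change in 1 line, so the count does not measure how common differences were. The widest difference between 2 lines in log2 change was 0.88 at the PHLDA1 main promoter region, 0.73 at that of SPRY2 and 0.88 at that of SPRY4. It was 1.57 at SPRY2 84 bp before a start and 1.61 at the SPRED2 region at -728 bp from an internal start. At distant regions it was 2.19 at SPRED2 19.8 kb before the nearest start, 2.71 at SPRY1 80.7 kb upstream, 2.91 at SPRY1 49.8 kb past a start and 2.01 at SPRY4 72.3 kb past the start. The HCC827 values in these differences carry the widest spread, with a coefficient of variation between libraries of 44.9% against 10.1% in HCC2935.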

How the results depend on the processing

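The DTP count of 28 member regions in PC9 was 24 to 30 when libraries were left out one at a time, that of 49 in H1975 was 42 to 46 and that of 48 in HCC2935 was 34 to 45. The HCC827 counts of 0 stayed at 0 to 0 in both comparisons. The AZD5153 counts were 21 to 24 in PC9 and 47 to 49 in H1975, the interaction counts 6 to 9 and 38 to 43, and the count of differences between lines 28 to 35. The combo counts depended most on single libraries, at 11 to 15 in PC9, 8 to 14 in H1975 and 9 to 13 in HCC2935. They fell by more than 1.5 times without DTP 3 (11) or combo 1 (11) in PC9, without DTP 1 (10), DTP 2 (10), DTP 3 (8), combo 1 (9) or combo 3 (10) in H1975, and without DTP 3 (9), combo 1 (11) or combo 2 (10) in HCC2935.

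In PC9 the combo count of 17 was 9 with no filter, 8 in DESeq2 and 4 with libraries summed, the AZD5153 count of 25 was 15 summed, and the interaction count of 9 was 3 in DESeq2 and 2 summed. In H1975 the combo count of 16 was 6 with no filter, 10 with regional medians removed, 5 in DESeq2 and 1 summed. In HCC2935 the DTP count of 48 was 30 with no filter, and the combo count of 17 was 8 in DESeq2 and 11 summed. With the replicate block the HCC827 DTP count was 1 instead of 0, and no other count of calls moved by over 1.5 times. At named regions, 1743 alternative values kept direction and call, 132 lost the call, 32 gained it and 5 changed sign.

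All 5 sign changes came with regional medians removed, which gave -0.44 for DTP at SPRY2 99.6 kb past a start in H1975, 0.26 for AZD5153 at the SPRY2 main promoter region in H1975, 0.43 for AZD5153 and -0.26 for the interaction at the SPRED2 main promoter region in H1975, and -0.58 for DTP at the SPRY1 main promoter region in HCC2935. The cause of these shifts was not tested. Depth limits regions of under 5 reads per library, where the size of fitted changes is imprecise.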
